A study of Mus musculus with 9 samples.

Results

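Transcripts of 9 enzymes that make, phosphorylate or consume nicotinamide adenine dinucleotide (NAD) were followed in mouse bone marrow (BM)-derived macrophages (Mϕs): Cd38, Bst1, Nampt, Naprt, Nmnat1, Nmnat3, Nadk, Sirt1 and Parp1. These genes were chosen by their role in NAD metabolism and with earlier results of these data in view, 9 of the 53379 genes in the table of expression values, so their values are given as a description and carry no p-value. The highest transcript of the group in any condition was Cd38 with interleukin (IL)-6, at 159.9 ± 18.2 FPKM (SD, n = 3), against 1.28 ± 0.276 in control and 0.795 ± 0.134 in IL-4-treated Mϕs. FPKM, fragments per kilobase of exon per 1000000 fragments, divides the fragments of a gene by its length and by library size, so levels of different genes may be set side by side.

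NAD is rebuilt inside cells mainly from nicotinamide, by Nampt, with smaller routes from nicotinic acid, by Naprt, and from tryptophan. Nicotinamide mononucleotide is turned into NAD by the Nmnat enzymes, and Nadk adds a phosphate to NAD to give NADP. Cd38 and its neighbour and relative Bst1 (CD157) are surface enzymes that split NAD into nicotinamide and ADP-ribose or cyclic ADP-ribose, while sirtuins and poly-ADP-ribose polymerases (PARPs) use NAD up when they deacetylate proteins or attach ADP-ribose. CD38 is well known on activated myeloid and lymphoid cells.

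The cells came from the BM of C57BL/6 mice and were all grown first with 10 ng/ml MCSF (CSF-1), the growth factor of the Mϕ lineage, for 3 days. They then received MCSF alone (Control), MCSF with 10 ng/ml IL-4, or MCSF with IL-6 at 100 ng/ml, each over 4 days, as the sample labels state, whereas the study's methods give another concentration of IL-4 and its legends another concentration and time. Each condition has 3 libraries of polyadenylated RNA numbered #1 to #3, and the study's legend gives 3 mice. The numbers do not state that same-numbered libraries come from the same mouse. Every comparison below is thus 3 libraries against 3, and the IL-4 and IL-6 comparisons share their control libraries. The libraries held 29988160 to 39909571 fragments. No purified or sorted Mϕ population is described for the libraries, and MCSF cultures of whole BM can hold other cells.

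Marker transcripts were summed per library to check the label. All 8 Mϕ markers were above a mean of 0.5 FPKM, and their sum was 16660 to 18970 FPKM in control, 6021 to 7062 in IL-4 and 20370 to 21460 in IL-6 libraries. Most of it was Lyz2, at 13790 to 16060, 4479 to 5734 and 17850 to 18960 FPKM. Itgam alone was higher with IL-4 than in control (37.2 to 72.3 against 33.7 to 36.8 FPKM). With IL-6, Cd68 was lower than in control (933.7 to 967.6 against 1311 to 1642 FPKM), Cd14, Itgam and Lyz2 were higher, and the rest overlapped control. Granulocyte markers (8 of 8 above 0.5) summed to 2222 to 3894, 838.4 to 1409 and 3692 to 5032 FPKM in control, IL-4 and IL-6 libraries. These sums were lowest with IL-4, and their control and IL-6 ranges overlapped. B cell markers (5 of 5) summed to 27.7 to 50.4, 22.9 to 31.2 and 19.6 to 33.0, and basophil and mast cell markers (3 of 3) to 11.9 to 27.5, 42.6 to 74.2 and 5.26 to 21.6. T and NK cell markers (0 of 4 above 0.5) summed to at most 1.62 and stromal markers (0 of 4) to at most 0.590. Erythroid markers (2 of 3) summed to 1.08 to 6.45, 0.337 to 5.75 and 2.85 to 8.12, and skeletal muscle markers (5 of 17, with Myh4 at 0) to 5.80 to 8.46, 2.01 to 11.1 and 9.40 to 16.1. Most of that sum in control was Tnni2, at 4.34 to 6.97 FPKM, whereas Myh1, Myl1 and Mb were at 0 in the 3 control libraries and IL-4 #1 and above 0 in the remaining 5 libraries. The part of these other cells in the values below was not tested, and in bulk RNA fewer cells of a type and less RNA per cell cannot be told apart.

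The libraries also divide by transcripts that Mϕs are not known for. Of the fragments, those of 14 intestinal genes (Paneth and goblet cells) numbered 23.4 to 35.9 per 1000000 in IL-4 #1 and the 3 control libraries. In the remaining 5 libraries they numbered 0.0990 to 0.245. Every control library thus belongs to one set and every IL-6 library to the other, so the set and IL-6 cannot be told apart except through the IL-4 libraries, and within-set values are given below. IL-4 #3 stands apart as well, with FPKM values that sum to 441581, against 322853 to 371690 in the other 8 libraries.

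Cd38 and Bst1 lie side by side on mouse chromosome 5, Bst1 at chr5:43818885-43843986 and Cd38 at chr5:43868553-43912375, both on the plus strand (GRCm38, GENCODE M21). The start of Bst1 is 49.7 kb before that of Cd38. The other members are dispersed: Nampt at chr12:32819545-32853349, Naprt at chr15:75890956-75894481, Nmnat1 at chr4:149467572-149485202, Nmnat3 at chr9:98287435-98420438, Nadk at chr4:155562378-155591001, Sirt1 at chr10:63319005-63381704 and Parp1 at chr1:180568924-180601254.

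Promoter windows of 250 bases before the annotated start, credited to RefSeq on GRCm38.p6, could be matched for 7 of the 9 genes. Bst1 and Naprt had no entry. A set of 7 short motifs were searched on both strands: TTCNNNGAA (STAT), the STAT6 form with one more free base, ACGTG (the HIF core, which overlaps the E-box), an NF-kB site, TTNNGCAA (C/EBP), TGANTCA (AP-1) and GAGGAA (PU.1). Among all 32851 windows, these letters were found in 7.02, 5.85, 16.6, 1.41, 9.56, 6.75 and 23.3%, respectively. The HIF core was present in windows of Nampt, Nadk, Sirt1 and Parp1, and the PU.1 letters in those of Nadk. No match to any of the motifs was found in the Cd38 window, all 250 bases of which M21 counts as exon of a longer Cd38 transcript, so its letters are not printed, and none was found in the Nmnat1 and Nmnat3 windows. The Nampt window is shown because Nampt is the entry to the main route of NAD synthesis. It lies within the span that M21 gives the gene but outside annotated exons, at chr12:32820085-32820334, plus strand, read toward the start, and capitals mark its single match, the reverse of the HIF core at positions −82 to −78 from the start.
Nampt: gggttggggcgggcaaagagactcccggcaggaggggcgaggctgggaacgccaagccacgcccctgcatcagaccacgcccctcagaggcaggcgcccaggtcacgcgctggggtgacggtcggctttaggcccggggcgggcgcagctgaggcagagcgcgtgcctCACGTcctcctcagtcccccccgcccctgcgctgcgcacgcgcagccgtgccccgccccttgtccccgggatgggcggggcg
A match of letters is a description of the sequence, and binding was not measured in these libraries.

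Among the enzymes that split NAD at the cell surface, Cd38 had the widest range of the 9 genes. Its level was 0.965, 1.41 and 1.47 FPKM in the control libraries, 0.820, 0.916 and 0.651 in the IL-4 libraries and 178.4, 142.0 and 159.2 in the IL-6 libraries. These levels rest on 131 to 201 fragments per control library, 101 to 109 per IL-4 library and 18039 to 24205 per IL-6 library. All IL-6 libraries were above all others, and all IL-4 libraries were below all control libraries. The ratio of mean FPKM was 124.8 for IL-6 over control and 201.0 for IL-6 over IL-4.

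Differences between groups were taken from a fit of log2(FPKM + 0.1) over 12824 genes, and genes counted as called where the adjusted p was below 0.05 and the log2 fold change reached 1 in either direction. On this scale Cd38 differed by 6.87 between IL-6 and control (standard error 0.20, 95% interval 6.42 to 7.32), rank 3 from the highest among the genes tested. IL-6 against IL-4 gave 7.49 (7.04 to 7.93), and IL-4 against control gave −0.62 (−1.06 to −0.17). In control Mϕs 19.4% of tested genes had a lower mean FPKM than Cd38, in IL-4-treated Mϕs 13.4% and in IL-6-treated Mϕs 98.1%. Within the sets of libraries, the IL-4 over control ratio was 0.640 from IL-4 #1, and the ratio of the IL-6 libraries to IL-4 #2 and #3 was 204.1. With the set in the fit, Cd38 differed by 6.95 between IL-6 and control.

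**Figure D1:**
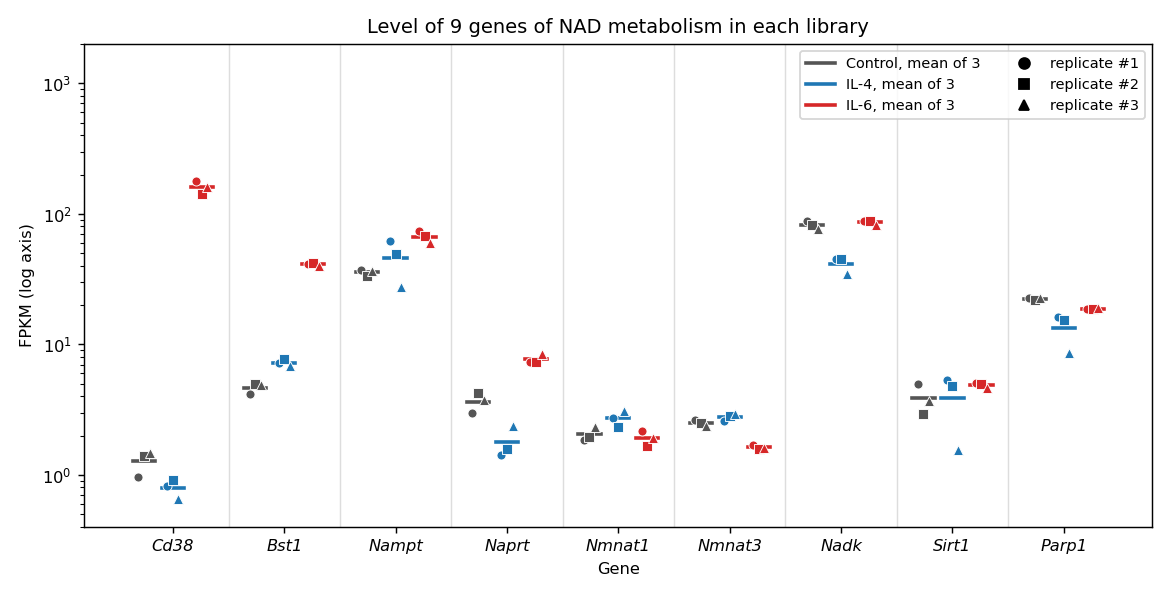
FPKM (log axis) of the 9 genes in each library, with colours for the condition, symbols for the replicate number and bars for the mean of 3 libraries. Cd38 is at 142.0 to 178.4 FPKM in the IL-6 libraries and at most 1.47 elsewhere, Bst1 is ordered control, IL-4, IL-6, and IL-4 #3 (blue triangle) lies below the other IL-4 libraries for Nampt, Sirt1 and Parp1.

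Bst1, which carries out the same NAD-splitting reaction and is known as a BM stromal and myeloid antigen, started from a higher level. It had 4.15, 4.98 and 4.85 FPKM in control, 7.15, 7.72 and 6.81 in IL-4 and 41.0, 42.1 and 39.5 in IL-6 libraries. The 3 groups did not overlap, with control lowest and IL-6 highest, so that Bst1 and Cd38 lay on opposite sides of control with IL-4 and on the same side with IL-6. The IL-6 over control ratio of means was 8.78 and the log2 fold change 3.11 (2.85 to 3.38), while IL-4 over control had a ratio of 1.55 and a log2 fold change of 0.63 (0.36 to 0.89). Within the sets the ratios were 1.54 for IL-4 #1 over control and 5.63 for IL-6 over IL-4 #2 and #3. The FPKM ratio of Cd38 to Bst1 within a library was 0.273 ± 0.0365 in control, 0.110 ± 0.0123 under IL-4 and 3.92 ± 0.497 under IL-6 (SD, n = 3), so Bst1 was the higher transcript in the control and IL-4 libraries and Cd38 in the IL-6 libraries.

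Genes around the pair were taken by their position, within 200000 bases on each side of Cd38, and 6 of the 20 genes there, Cd38 and Bst1 included, had a mean of at least 0.5 FPKM. Fbxl5, an iron-sensing ubiquitin ligase adaptor that starts 46.9 kb before Cd38 and reads away from it, had 5.47 ± 0.863 FPKM in control, 4.44 ± 1.52 under IL-4 and 14.0 ± 1.88 under IL-6, and rose with IL-6 against control (log2 fold change 1.34, standard error 0.27, limma adjusted p = 0.0204). The antisense transcript Gm16015 lies inside Cd38 and shares 0 exon bases with it. Its level was at most 0.588 FPKM in the control and IL-4 libraries and 36.3, 19.7 and 21.1 in the IL-6 libraries, and its log2 fold change was 5.98 against control (standard error 0.58, limma adjusted p = 0.000698). Whether strand was used in counting is not given in the sources used here, so fragments of Gm16015 and of unspliced Cd38 RNA cannot be told apart. Prom1, on the other side of Cd38, had 0.871 ± 0.0302, 0.375 ± 0.154 and 1.32 ± 0.180 FPKM and did not pass the test between IL-6 and control (log2 fold change 0.54, adjusted p = 0.338). Gm42462 had 3.30, 0.494 and 0.932 FPKM in the IL-6 libraries and did not pass it either (log2 fold change 2.00, adjusted p = 0.105). In control and under IL-4 the means were 0.330 and 0.163 FPKM for Gm16015 and 0.229 and 0.300 for Gm42462. All are below 0.5, so both genes entered the fit through the IL-6 libraries. Bst1 and Fbxl5 share 98 exon bases on opposite strands, of 3317 and 9740 in all.

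**Figure D2:**
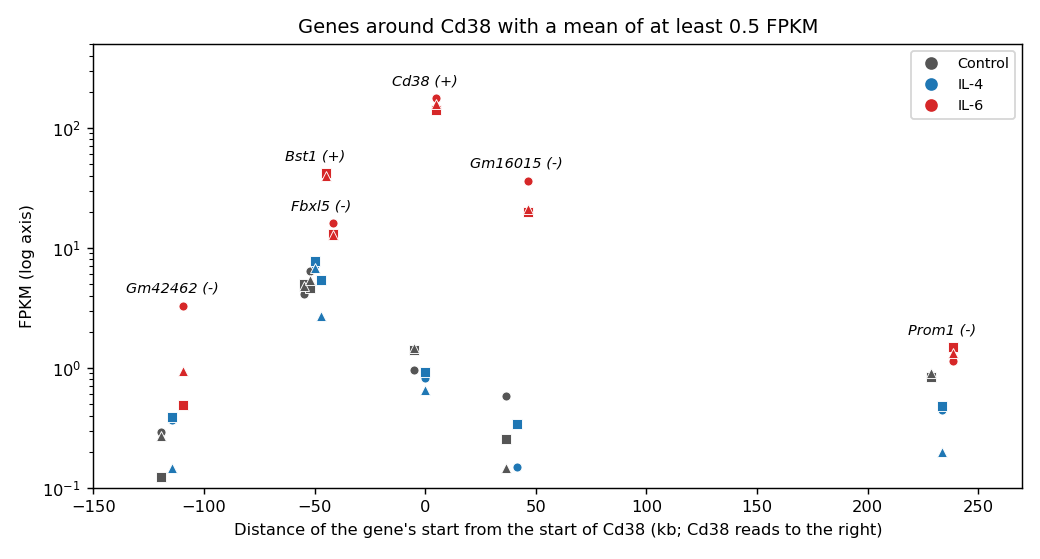
FPKM (log axis) in each library for the 6 genes with a mean of at least 0.5 FPKM within 200000 bases of Cd38, against the distance of their start from that of Cd38 in kb; colours stand for conditions, symbols for replicates as above, groups are set 5 kb apart, and (+) or (-) is the strand. The IL-6 libraries are highest for all 6 genes, but Gm16015 and Gm42462 reach a mean of 0.5 FPKM only through those libraries. The value of 0 for Gm16015 in IL-4 #3 cannot be drawn on this axis.

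Nampt, the rate-limiting enzyme of nicotinamide salvage, was among the higher members in every condition. Its level was 37.3, 33.2 and 36.3 FPKM in control, 61.6, 49.2 and 27.6 in IL-4 and 73.6, 67.5 and 59.5 in IL-6 libraries. The IL-6 libraries lay above the control libraries and the IL-4 libraries overlapped both, since IL-4 #3 was the lowest and IL-4 #1 the third highest of the 9. The ratio of means was 1.88 for IL-6 over control, with a log2 fold change of 0.90 (0.30 to 1.51). For IL-4 over control the log2 fold change was 0.30 (−0.31 to 0.91), and 0.63 without IL-4 #3. Within the sets Nampt had a ratio of 1.73 for IL-4 #1 over control and 1.74 for IL-6 over IL-4 #2 and #3. With the set in the fit the log2 fold change between IL-6 and control was 1.64. That term rests on IL-4 #1 (61.6 FPKM) against IL-4 #2 and #3 (49.2 and 27.6). The Cd38 to Nampt ratio of FPKM was 0.0363 ± 0.00907 in control, 0.0185 ± 0.00513 under IL-4 and 2.40 ± 0.286 under IL-6.

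Naprt, which starts the nicotinic acid route, lay on opposite sides of control with the 2 cytokines. It had 2.99, 4.22 and 3.72 FPKM in control, 1.42, 1.57 and 2.37 in IL-4 and 7.34, 7.26 and 8.42 in IL-6 libraries, and the groups did not overlap. The log2 fold change was −1.01 (−1.50 to −0.51) for IL-4 against control and 1.07 (0.57 to 1.56) for IL-6 against control, the latter 0.65 with the set in the fit. IL-6 and IL-4 differed by 2.07 (1.58 to 2.56), a ratio of 4.29, and within the second set the ratio was 3.89. The ratio of Nampt to Naprt in FPKM was 10.0 ± 2.33 in control, 28.7 ± 16.0 under IL-4 and 8.80 ± 1.55 under IL-6, and the 3 IL-4 libraries alone ran from 11.6 to 43.3.

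The enzymes that complete NAD were both low. Nmnat1, the nuclear form, had 1.86, 1.94 and 2.33 FPKM in control, 2.74, 2.34 and 3.08 under IL-4 and 2.17, 1.65 and 1.91 under IL-6. Its IL-4 libraries lay above the others, narrowly so since the lowest had 2.336 FPKM and the highest control library 2.327, and control and IL-6 overlapped. Nmnat3, the mitochondrial form, had 2.62, 2.51 and 2.35 FPKM in control, 2.60, 2.82 and 2.90 under IL-4 and 1.69, 1.59 and 1.61 under IL-6. Here the IL-6 libraries were the lowest (ratio to control 0.654, log2 fold change −0.58, −0.88 to −0.28), and control and IL-4 overlapped. The ratio of Nmnat1 to Nmnat3 was 0.825 ± 0.148, 0.980 ± 0.131 and 1.17 ± 0.123 in control, IL-4 and IL-6.

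Nadk, which makes NADP from NAD, was the most abundant member in control Mϕs. Its level was 87.9, 81.5 and 76.5 FPKM in control, 45.1, 45.1 and 34.3 under IL-4 and 88.4, 87.7 and 82.7 under IL-6. The IL-4 libraries lay below the others (ratio to control 0.506, log2 fold change −0.99, −1.30 to −0.68), and control and IL-6 overlapped (0.08, −0.23 to 0.38). Rescaling of each library by its median ratio moved the IL-4 difference to −0.79. The order of Cd38 and Nadk thus differed by condition: Nadk was higher in the control and IL-4 libraries and Cd38 in the IL-6 libraries.

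The last members use NAD up inside the cell. Sirt1, a nuclear NAD-dependent deacetylase, had 4.99, 2.92 and 3.70 FPKM in control, 5.32, 4.77 and 1.56 under IL-4 and 5.03, 5.00 and 4.65 under IL-6. All groups overlapped, and every interval of the main fit held 0. That of IL-4 against control ran from −1.12 to 0.84, and its value of −0.14 became 0.41 without IL-4 #3. With the set in the fit it was 0.48, and the Sirt1 difference of IL-6 from control went from 0.36 to 1.30. For Sirt1 that term rests on IL-4 #1 (5.32 FPKM) against IL-4 #2 and #3 (4.77 and 1.56). Parp1, the main DNA damage-responsive PARP, had 22.8, 21.9 and 22.6 FPKM in control, 16.2, 15.3 and 8.51 under IL-4 and 18.7, 18.5 and 19.0 under IL-6. No groups overlapped, with control highest and IL-4 lowest. The log2 fold change was −0.80 (−1.32 to −0.29) for IL-4 against control and −0.51 without IL-4 #3. For IL-6 against control it was −0.26 (−0.78 to 0.25), and 0.24 with the set in the fit, so its direction depended on that term. The term rests on IL-4 #1 (16.2 FPKM) against IL-4 #2 and #3 (15.3 and 8.51), the last of which stood apart.

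**Figure D3:**
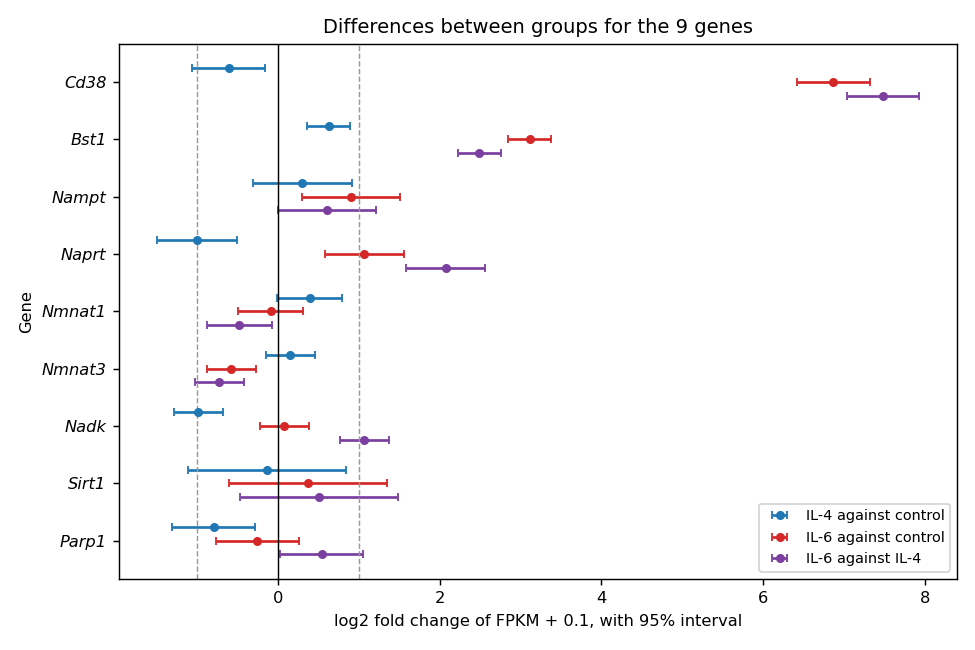
Log2 fold change of FPKM + 0.1 (horizontal axis) with its 95% interval for the 9 genes in 3 comparisons, with dashed lines at −1 and 1. Cd38 lies at 6.87 and 7.49 in the IL-6 comparisons, Bst1 at 3.11 and 2.49, and all 3 intervals of Sirt1 cross 0.

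Counted by the same thresholds, 1 of the 9 members (Naprt, lower) was called between IL-4 and control, where 13.9% of all tested genes were called, 5.02% higher and 8.89% lower. Between IL-6 and control 3 of 9 (Cd38, Bst1 and Naprt) were called higher, against 5.38% of all genes, 3.49% higher and 1.89% lower. Between IL-6 and IL-4 4 of 9 (these and Nadk) were called higher, against 20.4% of all genes, 13.6% higher and 6.82% lower. The values of Naprt lay at the fold threshold. Its IL-4 difference of −1.01 came short of it under 7 of 18 other settings, with −0.81 by median ratio, −0.76 by quantile normalization, −0.74 at a pseudocount of 1, −0.87 without IL-4 #1, −0.93 without IL-4 #2, −0.90 without Control #2 and −0.98 without Control #3. Its IL-6 difference from control came short under 4, among them 0.93 without Control #1 and 0.997 without IL-6 #3. For Nadk the IL-6 to IL-4 difference was 0.93 without IL-4 #3 and 0.86 by median ratio, under the threshold. These counts are given beside the background only, since the members were picked from results of these comparisons. The median log2 fold change of the 9 genes was −0.14, 0.36 and 0.61 in the 3 comparisons, and that of all tested genes −0.20, 0.00 and 0.22. After rescaling by median ratio the medians of all genes were −0.01, −0.01 and 0.02.

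A list of 69 other genes of NAD metabolism was read in the same fit. It was written by role from general knowledge, but with earlier results of these data known. Its p-values and shares carry that limit. The table holds 68 of them and 44 passed the filter of a mean of 0.5 FPKM. The 5 genes that passed the test between IL-4 and control (11.4%, against 13.9% of all tested genes) all fell. A single gene, 1 of 44 (2.27%, against 5.38%), passed between IL-6 and control, namely Art2b, which rose, and 2 had an adjusted p under 0.05 whatever the fold. Art2b had means of 0.494 FPKM in control and 0.229 under IL-4, below the filter, and entered the fit through the IL-6 libraries. Between IL-6 and IL-4 11 genes (25.0%, against 20.4%) passed, 10 of them at a higher level under IL-6. Art2b and Kynu, which both entered the fit through the IL-6 libraries, are among them, so nothing is read from these shares. Over the 44 genes the median log2 fold change was −0.36, 0.17 and 0.45, against −0.20, −0.004 and 0.22 over all tested genes. The count between IL-4 and control was 8 without IL-4 #1, that between IL-6 and IL-4 was 6 without IL-4 #3 and 7 without any 1 of the IL-6 libraries, and that between IL-6 and control was 2 without IL-4 #1 or IL-4 #3.

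Of the 9 genes of synthesis from tryptophan, 4 were tested. Kynu, the kynureninase, had 0.424, 0.325 and 0.408 FPKM in control, 0.490, 0.236 and 0.0530 under IL-4 and 1.53, 1.78 and 1.35 under IL-6. All its control and IL-4 values are below the filter of 0.5, so that Kynu entered the fit through the IL-6 libraries. With that limit, it passed the test between IL-6 and IL-4 (log2 fold change 2.40, standard error 0.46, limma adjusted p = 0.0049). Its IL-6 libraries were all above control, but that difference of 1.77 had an adjusted p of 0.0524 and passed under 5 other settings of the fit. Kmo, the kynurenine 3-monooxygenase, had 1.63, 1.23 and 1.30 FPKM in control, 0.848, 0.866 and 0.228 under IL-4 and 1.58, 1.93 and 2.24 under IL-6. It was higher with IL-6 than with IL-4 (1.58, adjusted p = 0.0191), a call that was lost without IL-6 #2 (1.57, adjusted p = 0.0595) or IL-6 #3 (1.46, adjusted p = 0.0699), and control and IL-6 overlapped. Ido1, Ido2 and Tdo2, which start the route, all had means over the 9 libraries below 0.1 FPKM.

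Nmrk1, which phosphorylates nicotinamide riboside, had 6.65, 6.05 and 6.19 FPKM in control, 2.25, 2.10 and 1.50 under IL-4 and 3.97, 3.89 and 3.75 under IL-6. The groups did not overlap, and the fall with IL-4 passed the test (−1.66, standard error 0.17, limma adjusted p = 0.000227), also with the set in the fit (−1.45, adjusted p = 0.00641). With IL-6 the value of −0.69 (adjusted p = 0.0394) missed the fold threshold. Nnt, the mitochondrial transhydrogenase that exchanges hydrogen between NADH and NADPH, fell with IL-4 (−1.16, adjusted p = 0.0260) and was higher with IL-6 than with IL-4 (1.03, adjusted p = 0.0328). Its IL-4 libraries had 3.03, 2.33 and 1.12 FPKM against 4.31 to 5.00 in control. Without IL-4 #3 the 2 differences were −0.77 and 0.64, under the fold threshold, and with the set in the fit the first was −0.59 (adjusted p = 0.376). The first also lost its call without any 1 control library (adjusted p of 0.0638 to 0.0857), and the second without Control #2, Control #3 or any 1 IL-6 library (adjusted p of 0.0514 to 0.0921). The paper names Jackson Lab as the source of its wild-type mice and C57BL/6J as their background, while its section on Mϕ culture writes C57BL/6. Whether their Nnt transcripts yield a working enzyme was not tested.

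All 6 other sirtuins were tested and none passed in any comparison. Sirt2, a mostly cytoplasmic deacetylase and the highest of the 6, had 32.8, 33.1 and 32.2 FPKM in control, 20.4, 19.6 and 13.2 under IL-4 and 26.7, 25.3 and 25.5 under IL-6. Its IL-4 difference of −0.91 had an adjusted p of 0.00498 and stayed short of the fold threshold. The 6 log2 fold changes ran from −0.91 to −0.32 for IL-4 against control, from −0.49 to 0.27 for IL-6 against control and from 0.03 to 0.77 for IL-6 against IL-4. The medians of all tested genes were −0.20, −0.004 and 0.22 in these comparisons, and −0.01, −0.01 and 0.02 after rescaling by median ratio.

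All 15 other members of the PARP family were tested. Parp8, a mono-ADP-ribosyltransferase, fell under IL-4 (−1.35, standard error 0.26, limma adjusted p = 0.0065) and was 5.07 times as high with IL-6 as with IL-4 (2.31, adjusted p = 0.000311). It had 3.50, 2.84 and 2.81 FPKM in control, 1.53, 1.33 and 0.705 under IL-4 and 6.33, 5.79 and 5.91 under IL-6, so the groups did not overlap. The IL-6 difference from control was 0.96 (adjusted p = 0.0596), and with the set in the fit the IL-4 difference was −0.95 (adjusted p = 0.116). Parp14, a STAT6-associated cofactor of IL-4 signaling, had 24.9, 15.7 and 20.1 FPKM in control, 20.4, 13.9 and 6.52 under IL-4 and 33.2, 34.4 and 29.7 under IL-6, and passed between IL-6 and IL-4 (1.39, adjusted p = 0.0225). Without IL-4 #3 that difference was 0.94, and without any 1 IL-6 library it was 1.35 to 1.45, with adjusted p-values of 0.0562 to 0.0704. Tnks2, a tankyrase, passed there too (1.07, adjusted p = 0.0388), and was 0.64 without IL-4 #3. Without any 1 control or IL-6 library it was 1.03 to 1.10, with adjusted p-values of 0.0519 to 0.108.

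Among the 6 genes of ADP-ribose removal, 5 were tested and Adprhl2, the hydrolase that takes ADP-ribose off serine, was lower under IL-6 than under IL-4 (−1.05, standard error 0.23, limma adjusted p = 0.00938). It had 10.1, 14.6 and 12.2 FPKM in control, 13.9, 14.0 and 23.1 under IL-4 and 6.89, 8.34 and 8.68 under IL-6, and the difference was −0.81 without IL-4 #3 and −0.95 without IL-6 #1, under the fold threshold.

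Art2b, a surface ADP-ribosyltransferase that, like Cd38, draws on NAD outside the cell, passed the test between IL-6 and control. Its means of 0.494 FPKM in control and 0.229 under IL-4 are below the filter of 0.5, so that it entered the fit through the IL-6 libraries. Its level was 0.577, 0.531 and 0.373 FPKM in control, 0.300, 0.245 and 0.142 under IL-4 and 2.29, 2.34 and 2.26 under IL-6, so the groups did not overlap. The log2 fold change was 2.03 between IL-6 and control (standard error 0.26, limma adjusted p = 0.00282), 2.50 with the set in the fit (adjusted p = 0.0478), and 2.90 between IL-6 and IL-4 (adjusted p = 9.3e-05). Its near-identical neighbour Art2a was not analysed here, and fragments of such a pair are uncertain in their assignment. Enpp1, a surface pyrophosphatase, was higher with IL-6 than with IL-4 (1.27, adjusted p = 0.00446), with 4.00, 3.60 and 3.75 FPKM in control, 2.29, 2.24 and 1.21 under IL-4 and 4.20, 4.52 and 5.02 under IL-6. That difference was 0.98 without IL-4 #3, under the fold threshold.

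Of the channels that the products of Cd38 open, 3 were tested. Trpm2, a calcium channel gated by ADP-ribose, had 6.18, 4.56 and 5.19 FPKM in control, 2.38, 2.26 and 1.09 under IL-4 and 5.22, 5.53 and 5.85 under IL-6. It fell under IL-4 (−1.49, standard error 0.28, limma adjusted p = 0.00597), by 1.11 with the set in the fit (adjusted p = 0.106), while control and IL-6 overlapped. Tpcn1, an endolysosomal channel linked to NAADP, had 26.4, 18.7 and 20.5 FPKM in control, 6.86, 6.59 and 3.80 under IL-4 and 15.0, 13.1 and 14.5 under IL-6. Its fall with IL-4 was the largest of the list in that comparison (−1.94, adjusted p = 0.0007), and the groups did not overlap. Both were higher with IL-6 than with IL-4, by 1.56 and 1.33. Tpcn2, the other endolysosomal channel linked to NAADP, is named after its values were seen. It had 28.4, 28.0 and 28.4 FPKM in control, 44.9, 45.3 and 40.5 under IL-4 and 24.7, 22.4 and 23.9 under IL-6, so the groups did not overlap and IL-4 was highest. Its log2 fold changes of 0.62 for IL-4 against control (adjusted p = 0.00246) and −0.88 for IL-6 against IL-4 (adjusted p = 0.000281) were under the fold threshold.

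**Figure D4:**
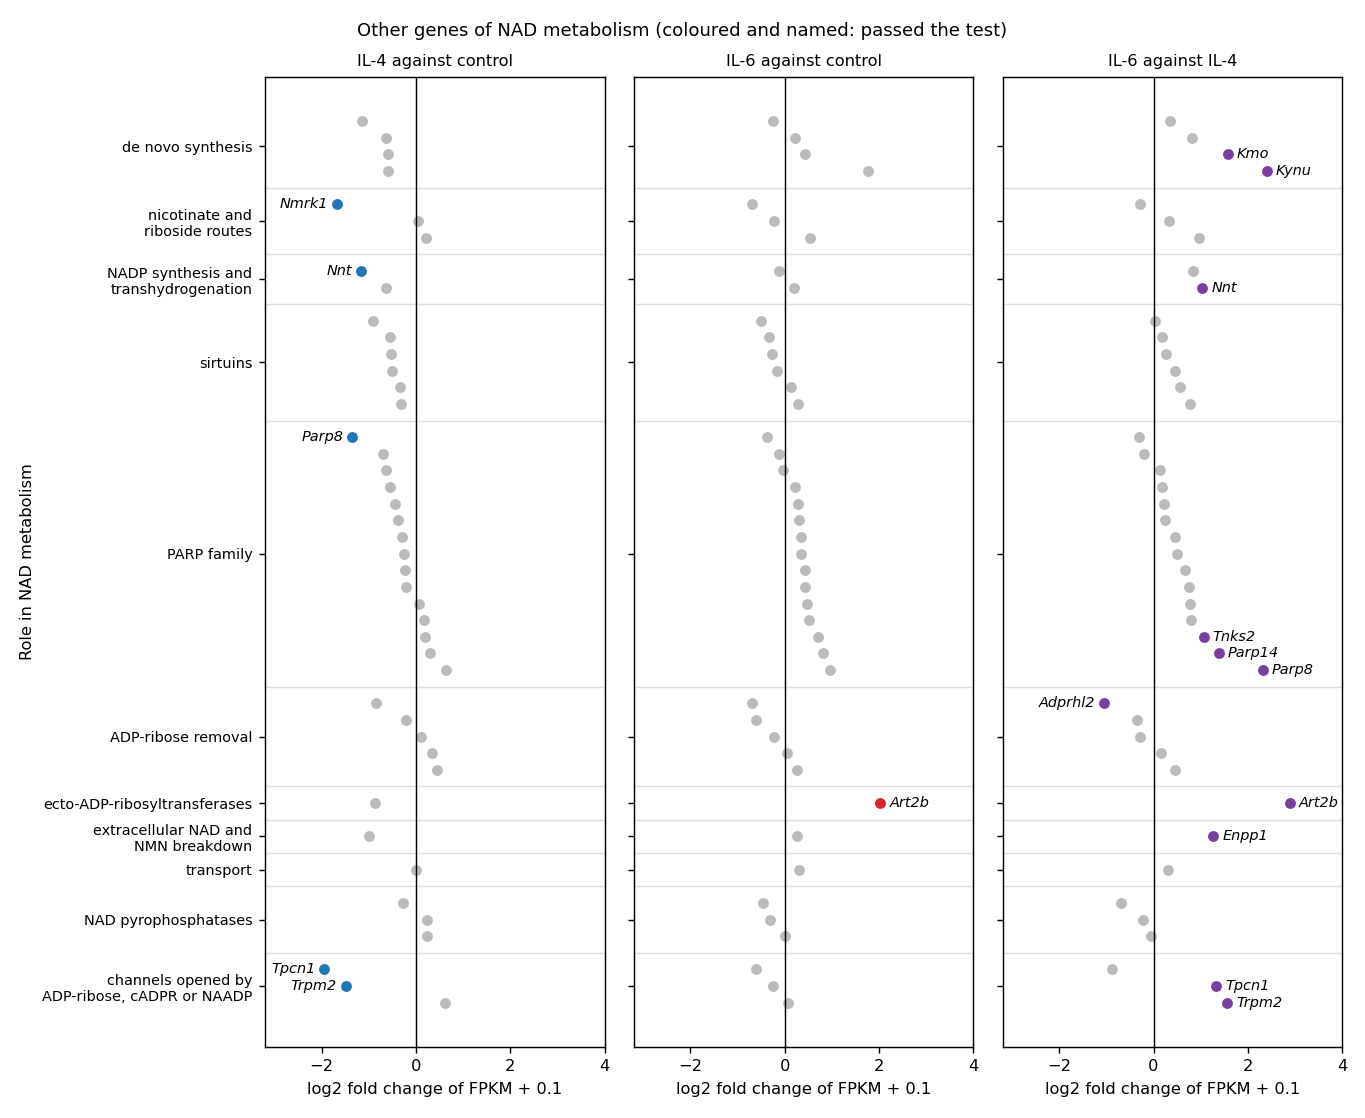
Log2 fold change of FPKM + 0.1 (horizontal axis) of the 44 tested genes of the list in 3 comparisons, ordered within each role by their value; coloured, named points passed the test (5, 1 and 11 genes) and grey points did not. The named genes lie left of 0 for IL-4 against control and, Adprhl2 apart, right of 0 for IL-6 against IL-4. Art2b and Kynu entered the fit through the IL-6 libraries.

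Roles with no gene that passed were represented by their highest gene. Slc25a51, the mitochondrial NAD carrier, had 27.1, 23.6 and 27.2 FPKM in control, 27.8, 29.6 and 21.3 under IL-4 and 30.1, 32.6 and 34.0 under IL-6, and its log2 fold change was 0.31 for IL-6 against control (adjusted p = 0.271). Nudt9, an ADP-ribose pyrophosphatase, had 18.9, 24.0 and 21.2, then 20.9, 21.5 and 34.5, then 14.0, 16.1 and 16.1 FPKM, and IL-6 against IL-4, at −0.70 (adjusted p = 0.0301), missed the fold threshold. Sarm1, an NAD glycohydrolase of neurons, had at most 6 fragments in any library.

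The genes whose pattern over the 9 libraries was most like that of Cd38, by Pearson's r of log2(FPKM + 0.1) over all tested genes, were Ms4a6d (0.996), Sod2 (0.993), Nrg1 (0.992), Serpinb2 (0.990) and Traf1 (0.989). Sod2, the mitochondrial superoxide dismutase, had means of 22.4, 21.9 and 128.2 FPKM in control, IL-4 and IL-6, and Nrg1, a growth factor of the EGF family, 0.0373, 0.0705 and 11.2. For Nampt they were Elovl6 (0.992), Gm44165 (0.991), Lrrc8c (0.979), Ddhd1 (0.977) and Tmx1 (0.973). Ddhd1, a phospholipase, had means of 5.56, 9.97 and 15.1 FPKM. The 9 points of each r share their libraries and fall into 3 groups, so the values rank genes and test nothing.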

How the data were processed

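RNA-seq of 9 libraries of BM-derived Mϕs, 3 per condition, was read from the table of FPKM values that the authors deposited. Reads had been aligned to GRCm38 with STAR 2.4.2a, and Cufflinks 2.2.1 and the M5 release of GENCODE are named for the FPKM. Of 53379 gene identifiers, 94.8% matched GENCODE M21 with their version, and 53274 were given a symbol. Values below 2000 fragments were whole multiples of 1 fragment over the exon length in M21 (100.0% of 157844 within 0.05), so fragments were read back, except for Naprt and 7 listed genes, whose identifiers have another version. A value of 3 fragments was taken as the floor, for counting error only.

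Genes with a mean of at least 0.5 FPKM (12824) were fitted as log2(FPKM + 0.1) with limma 3.58.1 in R 4.3.3, all 9 libraries in one model of 3 groups, with the trend and robust options and Benjamini-Hochberg adjustment over all these genes. All adjusted p-values are two-sided and come from this fit unless a setting is named. This scale understates the change of low genes. The fit was tested on simulated data. Intervals of 95%, SDs and p-values measure the spread between these libraries. Python 3.11.15 made the tables (pandas 2.3.3, numpy 2.4.6) and plots (matplotlib 3.10.9).

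The members and lists were chosen with earlier results of these data known, and members therefore have no p-value. Listed genes are named if called in any comparison, with the highest gene of each role without a call, and 5 genes most like Cd38 and Nampt. The column headers repeat the same numbers in each condition, and do not state that a number stands for the same mouse. Deviations from the group means of same-numbered libraries gave, for #1 to #3, r of 0.521, −0.415 and 0.0777 in the IL-4 libraries against control, 0.408, 0.201 and 0.166 in the IL-6 libraries against control, and 0.281, −0.0612 and 0.153 for IL-6 against IL-4. Alternatives were other pseudocounts, filters, scalings and fits, the replicate number as a block, the set of libraries as a term, voom on the fragments and the omission of each library.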

Additional observations from a re-analysis of the deposited data

Results flagged for a closer look

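For Cd38, Naprt, Parp8, Art2b and Enpp1 every IL-4 library lay on one side of all control libraries and every IL-6 library on the other. The same held for Sirt6 and Tpcn2, which were not called in any comparison, and for Nt5e and Ryr1, below the filter. The share of all tested genes with this separation was not counted, so nothing is read from the number of such genes. Between IL-6 and IL-4 the log2 fold changes were 7.49 for Cd38, 2.07 for Naprt, 2.31 for Parp8, 2.90 for Art2b and 1.27 for Enpp1. These genes were picked for that separation, and the difference was not tested on other libraries. The value of Enpp1 was 0.98 without IL-4 #3, and its difference of IL-6 from control was 0.27 (limma adjusted p = 0.593). The ratios of IL-6 to IL-4 #2 and #3, within one set of libraries, were 204.1, 3.89, 5.92, 11.9 and 2.66 for the 5 genes.

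Another 4 genes of the list fell below the filter on low values but had at least 20 fragments in every library of a cytokine group, and a higher FPKM there than in any control library. Nnmt, which methylates nicotinamide and so takes it out of salvage, had a mean of 0.636 FPKM with IL-4. It had 0, 2 and 4 fragments in control, 23, 26 and 59 under IL-4 and 13, 31 and 39 under IL-6. Ido2, a tryptophan dioxygenase, had a mean of 0.198 FPKM with IL-6, from 28, 21 and 22 fragments, against 1, 0 and 1 in control and 17, 4 and 4 with IL-4. Nt5e (CD73), a surface enzyme that dephosphorylates AMP and nicotinamide mononucleotide, had 0.622 FPKM with IL-6, from 155, 191 and 177 fragments, against 105, 80 and 81 in control and 40, 39 and 24 with IL-4. Ryr1, a calcium release channel best known from skeletal muscle, had 1.02 FPKM with IL-4, from 543, 490 and 1389 fragments, against 55, 59 and 66 in control and 21, 37 and 30 with IL-6. The summed skeletal muscle markers were 2.01 to 11.1 FPKM in the IL-4 libraries and 9.40 to 16.1 in the IL-6 libraries. IL-4 #1, with 543 fragments of Ryr1, had Myh1, Myl1 and Mb at 0. Tnni2, Mylpf and Acta1 had 0.879, 0.441 and 0.381 FPKM in that library. The part of muscle RNA in the Ryr1 values was not tested.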

How the results depend on the processing

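Over all alternatives run, 489 values of the members stayed within 1 SD of the spread and 36 moved further, and none of the called differences of a member changed sign. Those of Naprt came short of the fold threshold under 7 of 18 settings for IL-4 against control (−0.98 to −0.74) and under 4 for IL-6 against control (0.65 to 0.997), and that of Nadk under 2 of 20 for IL-6 against IL-4 (0.86 and 0.93). Of the named list genes, 797 values kept their side of the threshold, 51 lost the call, 20 gained one and 0 turned around. The list count between IL-4 and control, 5, became 3 at a pseudocount of 1, 1 with a mean of at least 5 FPKM, 3 with the set as a term and 11 by adjusted p alone, and ran from 4 to 8 on leaving out each library. The count between IL-6 and control, 1, became 3 without a filter, 0 with a mean of at least 5 FPKM, 2 with median-ratio rescaling, quantile normalization, no trend, only the groups compared, voom or adjusted p alone, and ran from 1 to 2. The count between IL-6 and IL-4, 11, became 6 at a pseudocount of 1, 4 with a mean of at least 5 FPKM and 20 by adjusted p alone, and ran from 6 to 14. The stricter filter tests fewer genes, and the cause of the other moves was not tested. With a block by replicate number the counts were 5, 1 and 11, and no named list gene gained or lost its call. Voom could test 37 of the 44 genes and not Naprt, for want of exon lengths.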
